A study of Mus musculus with 7 samples.

Results

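Glutathione peroxidases and thioredoxins were examined as 9 genes chosen by symbol, namely Gpx1, Gpx3, Gpx4, Gpx7, Gpx8, Txn1, Txn2, Txnip and Txnrd2. All 9 were found among the 26607 genes listed for each library. The question was whether the transcripts of these 2 peroxide-reducing systems differed between stimulated and unstimulated myotubes. C2C12 is a mouse myoblast line, bought as 1 line from a cell bank, whose cells fuse into contracting myotubes when serum is reduced. Poly(A) RNA of whole cultures was sequenced in 7 libraries, 3 control and 4 given electrical pulse stimulation (EPS), which makes myotubes contract. Both groups were the same unmodified line, and no other agent was named in the labels. EPS began on day 3 of differentiation and lasted 24 h, with 1 h of rest before harvest, whereas the control group received none. The control libraries carry the replicate numbers 1, 3 and 4 and the EPS libraries 1 to 4. Nothing in the sources used here says that they came from separate cultures, so P-values measure only the spread between these libraries.

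Peroxides formed during contraction are removed by enzymes that take their electrons from glutathione or from thioredoxin. Glutathione peroxidases reduce peroxides with glutathione, which glutathione reductase then restores. Thioredoxins reduce disulfides in other proteins, including peroxiredoxins and ribonucleotide reductase, and are themselves restored by thioredoxin reductases at the expense of NADPH. TXNIP binds reduced thioredoxin and blocks it, and it also lowers glucose uptake. GPX1, GPX3, GPX4 and the thioredoxin reductases are selenoproteins, whereas GPX7 and GPX8 carry cysteine in place of selenocysteine.

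Levels are in CPM, the reads of a gene scaled to a common library total. The libraries held between 16616917 and 22120641 reads, and 3 reads, taken as the smallest level that can be told from 0, stood at 0.136 to 0.181 CPM. The floor allows for counting error alone, since PCR can copy 1 molecule into several reads. Control replicate 4 stood apart: it had 359 genes at 1 to 5 reads, where each other library had 2670 to 3181, and 14014 genes above 0, where the others had 16144 to 16984. The 8 myotube markers (Acta1, Des, Myh3 and others) all reached 1 CPM, with a summed level of 9864 to 15010 CPM in control and 8287 to 11067 CPM in EPS libraries. The 4 markers of undifferentiated and dividing myoblasts summed to 186 to 278 CPM in control and 235 to 736 CPM in EPS libraries. None of the 4 passed P under 0.01. At an unadjusted P under 0.05, which 11.6% of all tested genes passed, the proliferation genes Mki67 and Top2a were higher in the EPS group. Their log2 fold changes were 1.27 and 0.86 (limma unadjusted P = 0.0138 and 0.0397). Myf5 and Pax7, at 0.20 and -0.12, did not pass it. The 4 fibroblast and stroma markers summed to 83.0 to 149 CPM in control and 56.7 to 147 CPM in EPS libraries, with Thy1 at the floor. The 4 leukocyte markers summed to 0.641 to 1.08 CPM in control and 1.26 to 2.76 CPM in EPS libraries, most of it Cd68 and the rest largely Csf1r, which was higher in every EPS library than in any control, at means of 0.0990 and 0.396 CPM (limma adjusted p = 0.283), with Ptprc and Emr1 at the floor. Endothelial and adipocyte markers were below 1 CPM in every library. In whole cultures, fewer cells of a type and less RNA per cell cannot be told apart.

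Txn1 and Txnip were the members with higher values in the EPS group at an unadjusted P under 0.05, so the 250 bases before their transcription starts are printed here from RefSeq (GRCm38.p6), 5′ to 3′ on the gene's strand. The Txn1 window is chr4:57956412-57956661 on the minus strand and the Txnip window is chr3:96557707-96557956 on the plus strand. Capitals mark GC boxes (GGGCGG on either strand, the letters bound by Sp1-type factors) and, in Txnip, the carbohydrate response element, a pair of E-box-like parts bound by the glucose-sensing factors MondoA and ChREBP.
Txn1: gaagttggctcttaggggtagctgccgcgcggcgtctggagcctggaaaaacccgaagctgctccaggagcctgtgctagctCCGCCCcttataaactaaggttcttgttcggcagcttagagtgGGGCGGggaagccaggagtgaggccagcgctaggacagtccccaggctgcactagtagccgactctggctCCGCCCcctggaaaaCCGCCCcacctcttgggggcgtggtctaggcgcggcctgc
Txnip: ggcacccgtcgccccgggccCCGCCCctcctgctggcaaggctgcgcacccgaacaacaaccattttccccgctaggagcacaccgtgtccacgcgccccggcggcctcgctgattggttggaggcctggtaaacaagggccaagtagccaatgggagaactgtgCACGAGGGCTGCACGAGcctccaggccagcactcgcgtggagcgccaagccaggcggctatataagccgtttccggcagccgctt
The Txn1 window held 4 GC boxes and the Txnip window 1, and at least 1 GC box was found in 32.7% of 32851 windows of the same length. The Txnip element, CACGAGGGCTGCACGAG, lay 85 to 69 bases before the start. Its pattern, a pair of CACGNG parts with 5 bases between them, was found in 15 of the 32851 windows, or 0.0457%, and it overlapped no GC box. The antioxidant response element core (TGACNNNGC on either strand), a form of the letters bound by NRF2, was in 10.2% of all windows and in no window of the 9 members. It was in 1 of the 3 windows of Txnrd1, as GCTTTGTCA at 92 to 84 bases before the start. It was also in the window of Arrdc4, a relative of Txnip, as GCCGTGTCA at 28 to 20 bases before the start. The window of Srxn1 did not hold this core. It held TGAGTCAGC, which has G in place of the first C of the core and was not counted. Other forms of the element were not searched in any window. Of the other motifs searched, the E-box CACGTG was in 6.02% of all windows and in none of the members, and TATAAA was in 12.4% of all windows and, among the members, in that of Txn1. These letter matches were searched on either strand with the biology of TXNIP and NRF2 in mind and describe the sequence only.

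No member passed the thresholds used in the study's results, P under 0.01 and more than 2-fold, which 1.41% of the 19144 tested genes passed. None passed P under 0.01 alone (4.17% of all tested genes) or an adjusted p under 0.05 (0.141%) in limma with Benjamini-Hochberg adjustment, and the groups overlapped for each of the 9 members, whereas they did not for 10.6% of all tested genes. At an unadjusted P under 0.05, which 11.6% of all tested genes passed, 3 members were called, with Txn1 and Txnip higher and Gpx3 lower in the EPS group. edgeR and DESeq2, run on whole reads recovered from the CPM, each called 3 members at the same P, beside 11.6% and 10.6% of all genes tested. At P under 0.01 edgeR called Gpx3, Txn1 and Txnip, beside 4.84% of all genes, and DESeq2 called Gpx3 and Txn1, beside 4.96%. Of these Gpx3 alone was past 2-fold in both, beside 3.29% of all genes in edgeR and 3.06% in DESeq2. Neither tool called a member at an adjusted p under 0.05, which 1.51% and 2.6% of all genes passed. Of the 9 members, 8 were above the floor in every library and Gpx7 was not in any. The median log2 fold change was 0.17 over the members, 0.041 over all tested genes and 0.10 over the 12256 genes with a mean of at least 1 CPM. That shift of 0.10 was between -0.015 and 0.0052 after the libraries were scaled to each other, and small differences are relative to it.

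**Figure D1:**
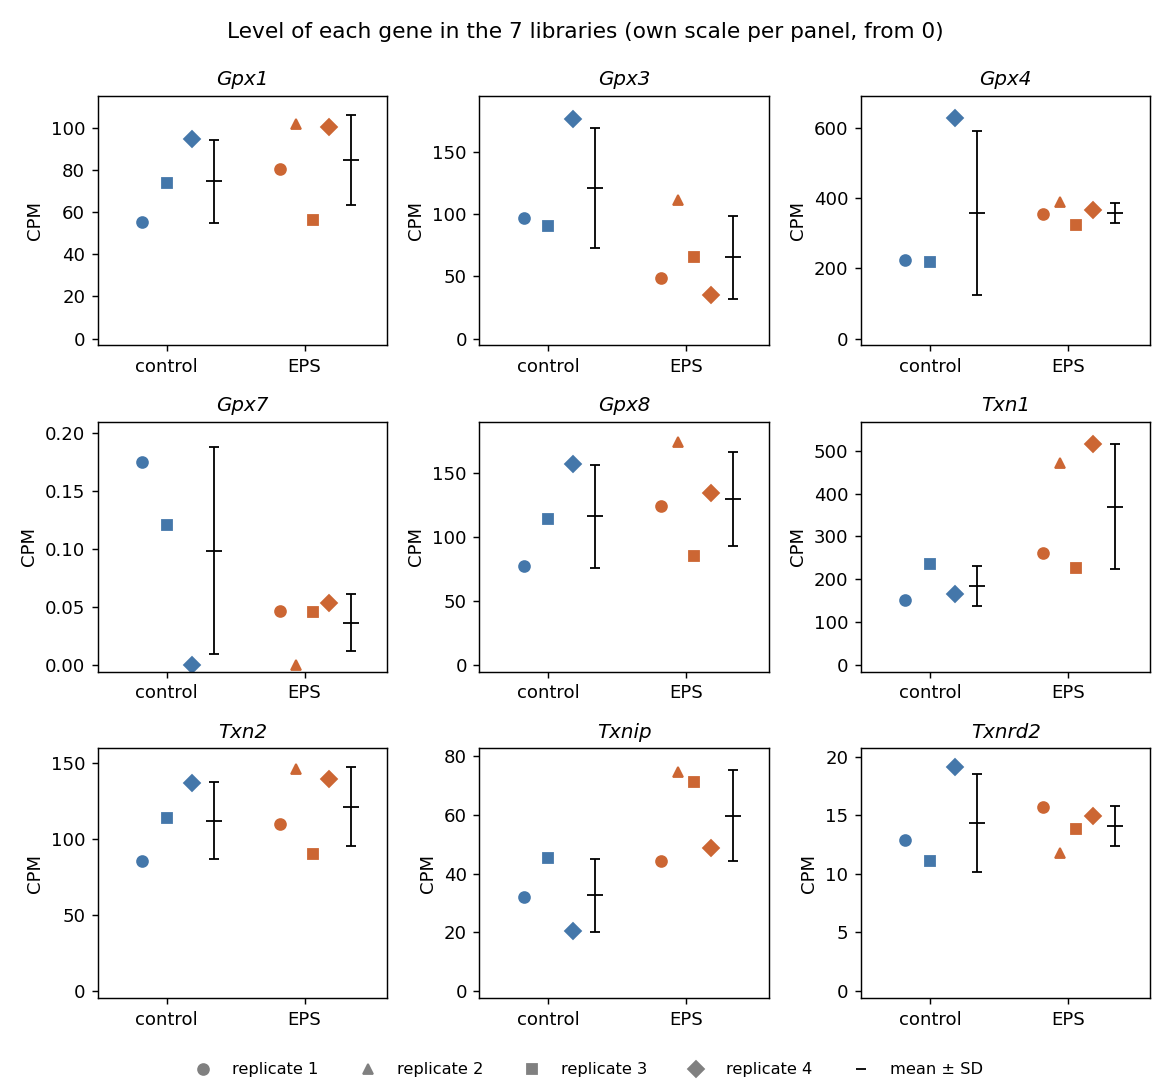
CPM of the 9 genes (vertical axis, own scale in each panel) in the 3 control and 4 EPS libraries, with the mean and SD beside the points and the marker shape giving the replicate number. The groups overlap in every panel, 3 of 4 EPS libraries lie above all controls for Txn1 and Txnip, 3 of 4 lie below them for Gpx3, and control replicate 4 is far above the other controls for Gpx4.

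Among the glutathione peroxidases, Gpx1 encodes the abundant cytosolic and mitochondrial enzyme that reduces hydrogen peroxide. The gene lies at chr9:108338903-108340343 (+) in GRCm38. It stood at 55.4, 73.9 and 94.98 CPM in control replicates 1, 3 and 4, and at 80.4, 102 and 56.2 CPM in EPS replicates 1 to 3 and 101 CPM in EPS replicate 4. EPS replicate 3 was level with the lowest control, and the groups overlapped over most of their range. The mean was 74.8 ± 19.8 CPM (SD, n = 3) in control and 84.9 ± 21.5 CPM (SD, n = 4) in EPS libraries, and the log2 fold change of CPM + 1 was 0.18 with a 95% interval from -0.40 to 0.75 (limma adjusted p = 0.824).

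Gpx3 encodes the secreted peroxidase of plasma and the extracellular space and lies at chr11:54902453-54910377 (+). It stood at 96.5, 90.3 and 177 CPM in control replicates 1, 3 and 4, and at 48.6, 111, 65.7 and 34.997 CPM in EPS replicates 1 to 4. The EPS libraries 1, 3 and 4 were below every control, whereas EPS replicate 2 was above 2 of the 3 controls. The mean was 121 ± 48.3 CPM in control and 65.2 ± 33.3 CPM in EPS libraries, 0.538 times the control mean. The log2 fold change was -0.95 ± 0.38 (SE), with a 95% interval from -1.82 to -0.072 (unadjusted P = 0.0368 and adjusted p = 0.386 in limma), and the exact two-sided permutation test of the CPM gave p = 0.114, where 3 against 4 libraries cannot go below 0.0286. Without EPS replicate 2 the log2 fold change was -1.24 and passed P under 0.01 (limma adjusted p = 0.209), and without control replicate 4 it was -0.64 and did not pass P under 0.05 (adjusted p = 0.601), nor did it without EPS replicate 1, 3 or 4 (-0.85, -0.99 and -0.70), within a range of adjusted p from 0.100292 to 0.678 over 16 alternatives. The fibroblast marker Dcn also had its lowest values in EPS replicates 1, 3 and 4, at 41.3, 46.6 and 26.6 CPM against 67.8 to 123 CPM in the control libraries and 113 CPM in EPS replicate 2. Of the other markers of that list, Pi16 ran from 1.87 to 3.09 CPM in control and was below every control in EPS replicates 1 and 4, at 1.30 and 1.59 CPM, and within the control range in EPS replicates 2 and 3, at 2.29 and 1.92 CPM. Pdgfra ran from 12.3 to 24.01 CPM in control and was higher in every EPS library, from 27.1 to 34.0 CPM, and Thy1 was at the floor. Whether these markers come from separate cells in this 1 line was not tested, nor was their part in the Gpx3 values.

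Gpx4 encodes the peroxidase that reduces phospholipid hydroperoxides in membranes and restrains ferroptosis, and it lies at chr10:80047166-80056439 (+). It stood at 225, 219.7 and 628 CPM in control replicates 1, 3 and 4 and at 356, 388, 323 and 365 CPM in EPS replicates 1 to 4. The EPS libraries lay close together between the controls, and control replicate 4 was at 2.82 times the mean of the other controls. The mean was 358 ± 234 CPM in control and 358 ± 27.2 CPM in EPS libraries, with a log2 fold change of 0.18 and a 95% interval from -0.61 to 0.98 (limma adjusted p = 0.869). The call turned on control replicate 4, since without it Gpx4 was higher in the EPS group by 0.68 on the log2 scale and passed P under 0.01 (adjusted p = 0.190 in limma, from 0.190 to 0.954 over the 16 alternatives). Myog, a myotube marker, was likewise set apart in control replicate 4, at 1794 CPM against 278 to 605 CPM in the other libraries. Of the 8 myotube markers, Myog, Ckm, Des and Mb had their highest value in that library, whereas Acta1 was at 2774 CPM there, the lowest control, and Myh3, Tnni2 and Tnnt3 were not highest there. Their part in the Gpx4 values was not tested. A processed pseudogene, Gpx4-ps2, is annotated on the same chromosome and was not listed, and how reads that fit more than 1 place were counted is not given in the sources used here.

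Gpx7 and Gpx8 encode peroxidases of the endoplasmic reticulum, where they use peroxide made during protein folding. Gpx7 (chr4:108400390-108406961, minus strand) had 3, 2 and 0 reads in the control libraries and 1, 0, 1 and 1 reads in the EPS libraries, at or under the floor in all 7, so no fold is given. Gpx8 (chr13:113042753-113046410, minus strand) stood at 77.2, 114 and 158 CPM in control replicates 1, 3 and 4 and at 125, 174, 85.4 and 135 CPM in EPS replicates 1 to 4. Its groups overlapped, and the log2 fold change was 0.17 with a 95% interval from -0.49 to 0.83 (limma adjusted p = 0.865). Of the endoplasmic reticulum pair, therefore, only Gpx8 was measurable at this depth in these 7 libraries.

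Among the thioredoxins, Txn1 encodes the cytosolic protein, which also reaches the nucleus, and lies at chr4:57943373-57956411 (minus strand). It stood at 150.5, 237 and 165 CPM in control replicates 1, 3 and 4 and at 262, 472, 226 and 516 CPM in EPS replicates 1 to 4. EPS replicates 2 and 4 were far above any control, while EPS replicate 3 fell just below control replicate 3. The mean was 184 ± 46.3 CPM in control and 369 ± 146 CPM in EPS libraries, 2.01 times the control mean. The log2 fold change was 0.94 ± 0.32 (SE), with a 95% interval from 0.21 to 1.67 (P = 0.0177 and adjusted p = 0.297 in limma, permutation p = 0.143, exact and two-sided). It passed P under 0.01 in 5 of the 16 alternatives, among them the fit without EPS replicate 3, at 1.14 (limma adjusted p = 0.239, from 0.0808 to 0.632 over the 16). Without control replicate 1 it was 0.81 and did not pass P under 0.05 (limma adjusted p = 0.451). The processed pseudogene Txn-ps1 on chromosome 1 was not listed, and whether any of its reads were counted for Txn1 was not tested.

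Txn2 encodes the mitochondrial thioredoxin and lies at chr15:77915047-77929006 (minus strand). It stood at 85.9, 114 and 137 CPM in control replicates 1, 3 and 4 and at 109.9, 146, 90.1 and 139.7 CPM in EPS replicates 1 to 4. The groups overlapped almost fully, with a log2 fold change of 0.11 and a 95% interval from -0.39 to 0.62 (limma adjusted p = 0.869). Txnrd2, the mitochondrial reductase that restores TXN2, lies at chr16:18426384-18479073 (+) and stood at 12.9, 11.1 and 19.1 CPM in control replicates 1, 3 and 4 and at 15.7, 11.8, 13.8 and 14.9 CPM in EPS replicates 1 to 4. All 4 EPS libraries lay within the range of the controls, and the log2 fold change was 0.00 with a 95% interval from -0.53 to 0.54 (limma adjusted p = 0.999). The intervals of both mitochondrial genes hold changes in either direction.

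Txnip encodes the inhibitor of thioredoxin and lies at chr3:96557957-96561883 (+). It stood at 32.2, 45.4 and 20.3 CPM in control replicates 1, 3 and 4 and at 44.4, 74.7, 71.4 and 48.6 CPM in EPS replicates 1 to 4. EPS replicate 1 was just below control replicate 3, and the other EPS libraries were above every control. The mean was 32.6 ± 12.5 CPM in control and 59.8 ± 15.5 CPM in EPS libraries, 1.83 times the control mean. The log2 fold change was 0.89 ± 0.29 (SE), with a 95% interval from 0.23 to 1.55 (P = 0.0144 and adjusted p = 0.277 in limma, permutation p = 0.114, exact and two-sided). Without control replicate 3 it was 1.16 and passed P under 0.01 (limma adjusted p = 0.171), and without control replicate 4, the library with the lowest Txnip, it was 0.60 and did not pass P under 0.05 (adjusted p = 0.446), within a range of adjusted p from 0.164 to 0.542 over the 16 alternatives. The antisense gene Gm15441, which shares 606 exon bases with Txnip, was at 0.159 CPM or below in every library.

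**Figure D2:**
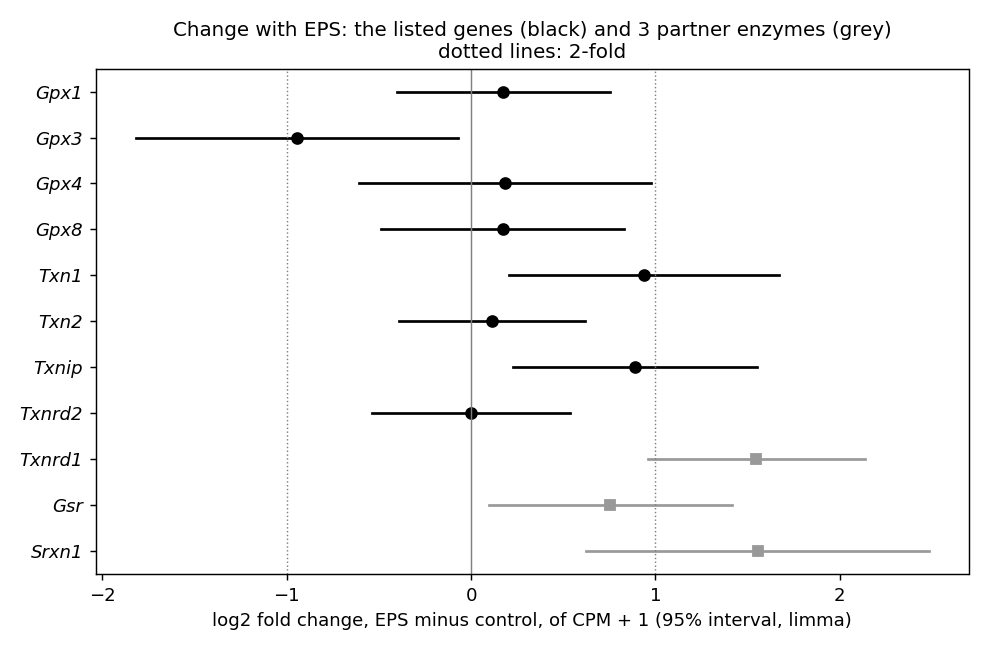
Log2 fold change of CPM + 1, EPS minus control (horizontal axis), with its 95% interval from limma, for the 8 listed genes above the floor (black) and for Txnrd1, Gsr and Srxn1 (grey), with dotted lines at 2-fold. The intervals of Gpx3, Txn1 and Txnip exclude 0 and reach past 2-fold, those of the other 5 listed genes hold 0, and the Txnrd1 estimate of 1.55 lies beyond the 2-fold line.

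Per kilobase of merged exons, levels can be compared between genes. Gpx4 had the highest mean level in control libraries, at 207 CPM per kilobase, followed by Txn1 at 175, Gpx8 at 111, Gpx3 at 66.9 and Gpx1 at 51.9 CPM per kilobase. Txn2 at 26.7, Txnip at 10.4, Txnrd2 at 3.26 and Gpx7 at 0.0764 CPM per kilobase followed. The control ranges of neighbours in this order overlapped from Gpx4 down to Gpx1 and did not overlap from Gpx1 down to Gpx7. The first place of Gpx4 rested on control replicate 4, where it was at 364 CPM per kilobase. In control replicates 1 and 3 Gpx4 was below Txn1, which ran from 143 to 225 CPM per kilobase over the control libraries. On the means of the EPS libraries Txn1 came first, at 351 ± 139 CPM per kilobase, ahead of Gpx4 at 208 ± 15.8. Control replicates 1 and 3 had the same order of these 2 genes. Gpx1 at 58.9 stood ahead of Gpx3 at 35.9 CPM per kilobase in EPS libraries. The levels of Txn1 in the EPS libraries ran from 215 to 491 CPM per kilobase and those of Gpx4 from 187 to 225, so the ranges overlapped across libraries. Within each EPS library, however, Txn1 was above Gpx4. The other 5 members kept their rank.

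Of 3 enzymes that restore the members or share their substrates, Txnrd1 and Srxn1 passed P under 0.01 and 2-fold and Gsr did not. Txnrd1, the cytosolic reductase of TXN1, stood at 143, 141 and 108 CPM in control replicates 1, 3 and 4 and at 291, 396, 307 and 591 CPM in EPS replicates 1 to 4. Every EPS library was above every control, and Txnrd1 rose by 1.55 ± 0.26 (SE) on the log2 scale (P = 0.000233 and adjusted p = 0.0712 in limma, exact permutation p = 0.0286, the smallest possible). With the replicate number as a block, Txnrd1 was higher by 1.53 and did not pass P under 0.01 (adjusted p = 0.523 in limma). Srxn1, the sulfiredoxin that repairs overoxidized peroxiredoxins, stood at 20.5, 26.7 and 33.8 CPM in control replicates 1, 3 and 4 and at 59.3, 62.0, 57.5 and 189 CPM in EPS replicates 1 to 4. It rose by 1.55 ± 0.41 (SE) on the log2 scale with no overlap (adjusted p = 0.185 in limma, from 0.00309 to 0.510 over the 16 alternatives), and it did not pass P under 0.01 without control replicate 1 (adjusted p = 0.336) or without control replicate 3 (adjusted p = 0.240). Gsr, the glutathione reductase, stood at 40.8, 57.1 and 53.3 CPM in control replicates 1, 3 and 4 and at 54.5, 102, 70.8 and 132 CPM in EPS replicates 1 to 4. EPS replicate 1 overlapped the controls, and the log2 fold change of 0.76 did not pass P under 0.01 (adjusted p = 0.357 in limma).

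Ratios between 2 transcripts of the same library do not depend on how libraries are scaled, and 5 were computed after the values above had been seen, so they are given as a description with no test. The log2 ratio of Txnrd1 to Txnrd2, the cytosolic against the mitochondrial reductase, was 3.21 ± 0.63 in control (SD, n = 3) and 4.76 ± 0.51 in EPS libraries (SD, n = 4), with no overlap. The log2 ratio of Txn1 to Txn2, the cytosolic against the mitochondrial thioredoxin, was 0.81, 1.05 and 0.27 in the control libraries and 1.25, 1.69, 1.33 and 1.89 in the EPS libraries, listed by replicate number. It too did not overlap, although Txn1 itself did. The log2 ratio of Gpx3 to Gpx1 was 0.80, 0.29 and 0.90 in the control libraries and -0.73, 0.12, 0.22 and -1.52 in the EPS libraries, lower in every EPS library than in any control. The log2 ratio of Txn1 to its inhibitor Txnip was 2.54 ± 0.42 in control and 2.57 ± 0.71 in EPS libraries, and that of Gpx4 to Gpx1 was 2.11 ± 0.58 and 2.11 ± 0.30. Both of these overlapped, and their mean differences of 0.032 and 0.0064 were smaller than the SD within each group.

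**Figure D3:**
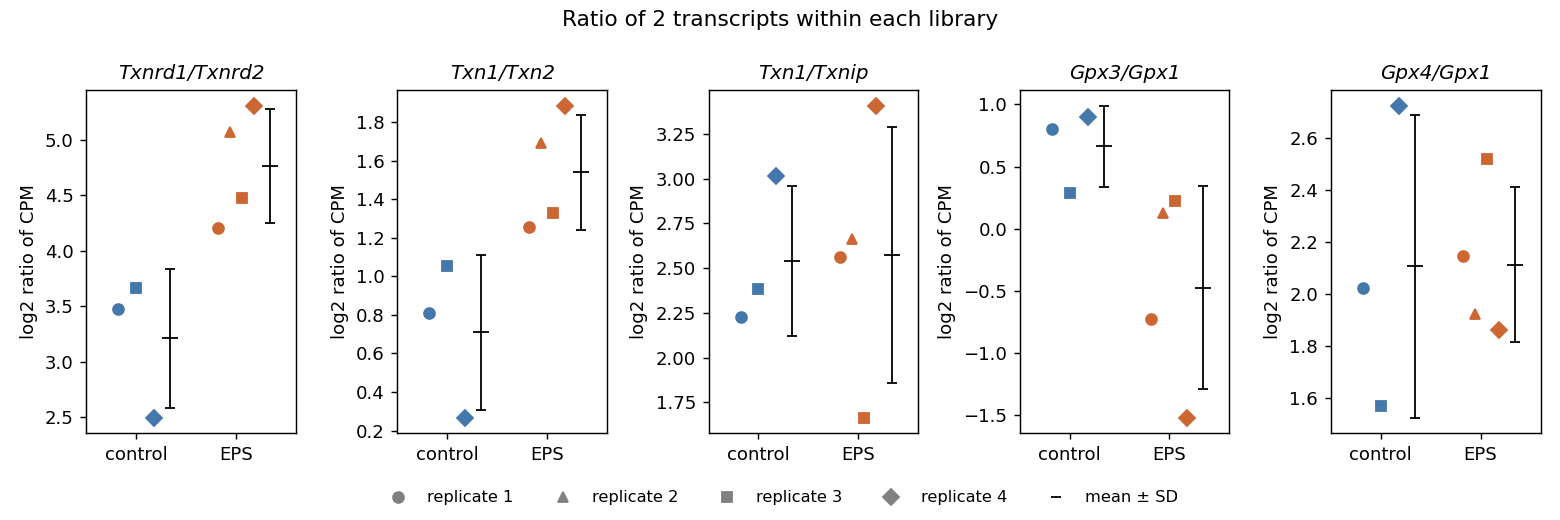
Log2 ratio of the CPM of 2 transcripts within each library (vertical axis, own range in each panel), for the 3 control and 4 EPS libraries with the mean and SD. The ratios of Txnrd1 to Txnrd2 and of Txn1 to Txn2 are higher and that of Gpx3 to Gpx1 is lower in all 4 EPS libraries than in any control, while the ratios of Txn1 to Txnip and of Gpx4 to Gpx1 overlap.

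The surrounding pathway was read from 7 gene lists, by the count past P under 0.01, beside 542 higher and 256 lower among all 19144 tested genes. Of 10 peroxiredoxins and their repair proteins, 2 rose and none fell, namely Srxn1 and Prdx6, the peroxiredoxin that uses glutathione. Prdx6 went from 138 ± 13.5 to 335 ± 109 CPM, by 1.22 on the log2 scale (adjusted p = 0.107 in limma), and the median of the list was 0.097. Of 9 genes of glutathione synthesis and reduction, 1 rose and none fell, with a list median of 0.036. It was Gclm, the modifier subunit of the enzyme that makes the first step of glutathione synthesis, which stood at 16.4, 21.1 and 16.7 CPM in control replicates 1, 3 and 4 and at 48.5, 76.0, 47.6 and 145 CPM in EPS replicates 1 to 4 (1.93 on the log2 scale, adjusted p = 0.0941 in limma). In the same list edgeR and DESeq2 also called Gclc, the catalytic subunit, higher at P under 0.01, which limma did not (36.3 ± 8.92 CPM in control and 63.7 ± 18.5 CPM in EPS libraries, limma adjusted p = 0.277). Of 11 other genes of the peroxidase and thioredoxin families, 8 were tested and Txnrd1 alone rose, with none lower and a list median of 0.12.

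The 8 genes of the machinery that inserts selenocysteine had none past P under 0.01 or under 0.05 in either direction, with a list median of 0.099. edgeR and DESeq2 also called none of the 8 at P under 0.05. The same held in limma for 13 other selenoproteins, with a median of 0.078, while edgeR called 1 of the 13 lower at P under 0.01 and DESeq2 at P under 0.05. It was Sep15 (also named Selenof), at 258, 399 and 926 CPM in the control libraries and 250.1, 425, 223 and 298 CPM in the EPS libraries, with control replicate 4 again far above the others (limma adjusted p = 0.595). Of 10 regulators, relatives and partners of TXNIP, 1 passed P under 0.01. It was Slc2a1, the glucose transporter GLUT1 whose uptake from the membrane TXNIP promotes, at 45.1 ± 4.81 CPM in control and 81.7 ± 4.33 CPM in EPS libraries, higher by 0.85 on the log2 scale and without overlap (adjusted p = 0.0692 in limma). The list median was 0.21. Of 6 clients of thioredoxin none passed P under 0.01 in limma, edgeR or DESeq2, and the median was 0.13. In limma 3 passed P under 0.05, Rrm1 and Rrm2 higher and Map3k5 lower, all without overlap. On the scale of log2(CPM + 1) the largest of these changes was that of Rrm2, the small subunit of ribonucleotide reductase, at 93.4 ± 27.1 CPM in control and 156 ± 37.1 CPM in EPS libraries (0.75 on the log2 scale, adjusted p = 0.288 in limma). Map3k5 went from a mean of 0.631 CPM in control to 0.267 CPM in EPS libraries (adjusted p = 0.246 in limma). It was at or under the floor in EPS replicates 1 and 2. Rrm2 is made by dividing cells, and the proliferation genes of the myoblast list, Mki67 and Top2a, ran from 89.96 to 131 and from 74.7 to 115 CPM in control and from 124 to 452 and from 82.2 to 262 CPM in EPS libraries. Their part in the Rrm2 values was not tested. No gene of the 7 lists had an adjusted p under 0.05 in limma as reported, although Txnrd1 had 0.0311 in limma with a pseudocount of 0.1 and 0.0194 over genes with a mean of at least 1 CPM, within a range from 1.18e-05 to 0.523 over the 16 alternatives. edgeR called 4 of them (Gclm, Prdx6, Srxn1 and Txnrd1) and DESeq2 called 5, with Slc2a1 added.

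The genes whose profile over the 7 libraries lay nearest to that of Gpx3, by the root mean square difference of centred log2 values among 12255 genes, were Art1, 2210020M01Rik and Doc2g, at 0.17, 0.19 and 0.21 against a median of 0.79. Art1, an ADP-ribosyltransferase of the muscle cell surface, had a mean of 34.2 CPM in control and 19.2 CPM in EPS libraries. Those nearest to Txnip were Gimap8, Gm14002 and Aldoc, at 0.13, 0.13 and 0.14 against a median of 0.60. Aldoc, a glycolytic aldolase, had a mean of 1.80 CPM in control and 4.42 CPM in EPS libraries, and Gimap8 one of 0.895 and 2.29 CPM. These levels are far lower than those of Txnip, and the likeness is a description over 7 libraries.

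**Figure D4:**
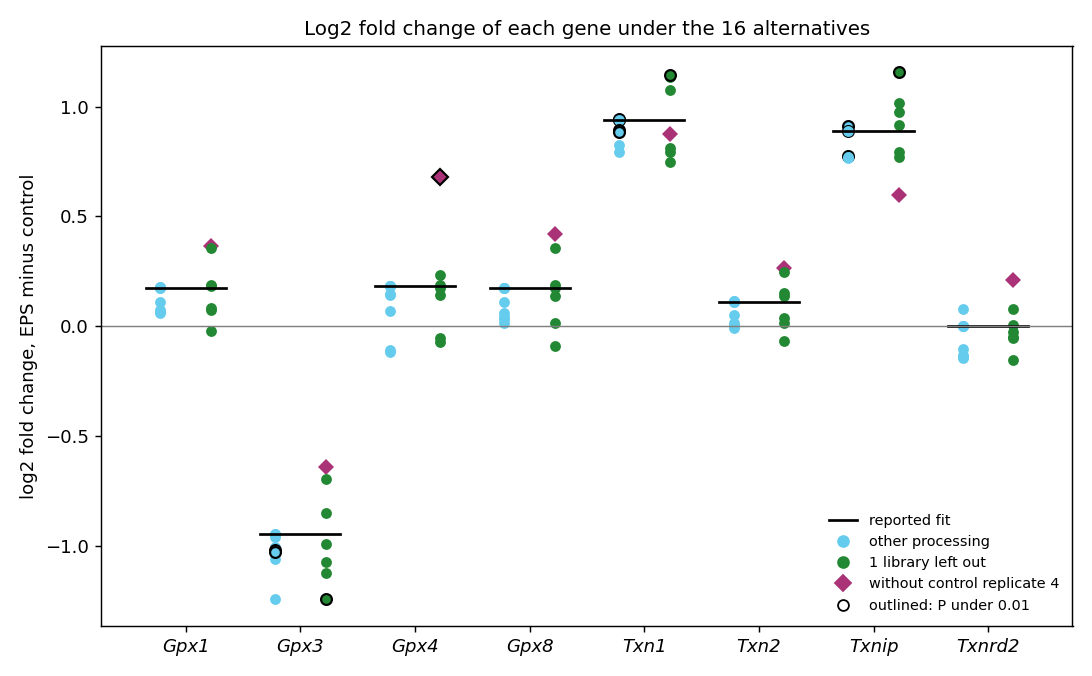
Log2 fold change, EPS minus control (vertical axis), of the 8 listed genes above the floor in the reported fit (black line), under other processing (light blue) and with 1 library left out (green, purple diamond for control replicate 4), with outlined points past P under 0.01. Gpx3 stays below 0 and Txn1 and Txnip above 0 in all 16 alternatives, the estimates of the other 5 lie on both sides of 0, and Gpx4 moves to 0.68 without control replicate 4.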

How the data were processed

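The authors mapped paired-end reads of poly(A) RNA from a directional kit to GRCm38 with STAR 2.5.4b, per the submitters' notes, and deposited CPM, 1 value per gene and library. The read counter, annotation, strand setting and handling of reads that fit several places are not given in the sources used here. The CPM were whole multiples of 1 read within 0.01 reads for 100% of values, and whole reads were recovered. Reads per library were between 16616917 and 22120641.

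Genes above 0 in at least 1 library (19144 of 26607) were tested as log2(CPM + 1) with limma 3.58.1 in R 4.3.3 (trended empirical Bayes, two-sided, Benjamini-Hochberg adjustment over all tested genes), EPS against control, with no covariate. Fold changes on this scale understate those of low genes. Single values were also compared by an exact two-sided permutation test over 35 assignments. As alternatives, the pseudocount was set to 0.5 or 0.1, genes under a mean of 1 CPM were dropped, the libraries were quantile-normalized or scaled by median of ratios, empirical Bayes was made robust, and the fit was replaced by edgeR 4.0.16 and DESeq2 1.42.0 on recovered reads, given a replicate block or run without each library in turn. The scripts were tested on simulated data.

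The members, the pathway lists and the tests were chosen with earlier results of these data known. Named besides the members were Txnrd1, Gsr and Srxn1, from each pathway list the genes past P under 0.01 and 2-fold or, with none, the largest log2 change without overlap, and the 3 nearest profiles of Gpx3 and Txnip, the peroxidase and the thioredoxin-system member with the largest moderated statistic. Gclc and Sep15 were also named, since edgeR or DESeq2 called them at P under 0.01 and limma did not. So were the 3 thioredoxin clients past P under 0.05 in limma. Gene positions and merged exon lengths were taken by symbol from GENCODE M21 (GRCm38), and promoter sequences are those of RefSeq, found for all 9 members. Protein sequences were not used here. An overlap of a member with another gene is not reported here.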

Additional observations from a re-analysis of the deposited data

Results flagged for a closer look

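Srxn1 in EPS replicate 4, at 189 CPM, stood apart from the other EPS libraries, which lay between 57.5 and 62.0 CPM, with a gap of 0.966 of the group's whole range. This was 1 of 16 groups of 4 libraries examined for such a gap, and chance gives about 1 in 20. Without that library the log2 fold change of Srxn1 was 1.14 and still passed P under 0.01 in limma.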

How the results depend on the processing

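Gpx3 kept its direction in all 16 alternatives, from -1.24 to -0.64 on the log2 scale, and so did Txn1, from 0.75 to 1.14, and Txnip, from 0.60 to 1.16, with limma, edgeR or DESeq2 adjusted p between 0.100292 and 0.678, 0.0808 and 0.632, and 0.164 and 0.542. They passed P under 0.01 in 3, 5 and 4 of the 16 alternatives, Gpx4 in 1. Members past P under 0.01 were 0 as reported, 2 with a pseudocount of 0.1, 2 with a minimum mean of 1 CPM, 3 with edgeR, 2 with DESeq2 and 0 to 1 with 1 library left out, where all genes past it were 798, 833, 636, 927, 949 and 560 to 803. With more than 2-fold as well they were 0 as reported, 1 with edgeR, 1 with DESeq2 and 0 to 1 with 1 library left out (Txnip without control replicate 3, Gpx3 without EPS replicate 2 or Txn1 without EPS replicate 3). Over all genes, 269 past P under 0.01 and 2-fold became 601 with a pseudocount of 0.1, 629 with edgeR and 585 with DESeq2. The 27 with an adjusted p under 0.05 became 106 with a pseudocount of 0.1, 121 with a minimum mean of 1 CPM, 17 with quantile normalization, 290 with edgeR, 497 with DESeq2 and 0 to 27 with 1 library left out, namely 5, 6 and 5 without control replicates 1, 3 and 4 and 27, 8, 0 and 4 without EPS replicates 1 to 4. The cause was not tested.

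The estimates of the other members changed sign, and with 1 library left out they reached 0.36 for Gpx1, 0.68 for Gpx4, 0.42 for Gpx8, 0.27 for Txn2 and 0.21 for Txnrd2, all without control replicate 4. Txnrd2 was -0.15 with quantile normalization, -0.10 with median-of-ratios scaling, -0.13 with edgeR, -0.14 with DESeq2, and -0.054, -0.15, -0.052 and -0.028 without control replicates 1 and 3 and EPS replicates 1 and 4. Txn2 was -0.00037 with median-of-ratios scaling, -0.0084 with DESeq2 and -0.067 without control replicate 1. Gpx4 was -0.11 with edgeR, -0.12 with DESeq2, and -0.056 and -0.075 without control replicates 1 and 3. Without control replicate 1, Gpx1 was -0.020 and Gpx8 -0.091. Among the log2 ratios, an alternative added after seeing the data, Txn1 to Txnip differed by -0.13, -0.048 and -0.25 without control replicates 1 and 3 and EPS replicate 4 and by 0.33 without EPS replicate 3, and Gpx4 to Gpx1 by -0.035, -0.26, -0.0045 and -0.13 without control replicates 1 and 3 and EPS replicates 1 and 3 and by 0.32 without control replicate 4.

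Whether the shared replicate numbers 1, 3 and 4 pair the libraries is not given in the sources used here. Deviations of same-numbered libraries from their group means correlated at 0.25, -0.45 and 0.068 over 12256 genes. So few pairs, taken against means of the same few libraries, cannot decide whether the numbers mark a pairing. With the replicate number as a block, which drops EPS replicate 2, genes past P under 0.01 went from 798 to 360, those also past 2-fold to 161, those with an adjusted p under 0.05 to 0 and the pathway genes past P under 0.01 from 5 to 2. Txnrd1 (adjusted p = 0.523 in limma), Gclm and Prdx6 then did not pass P under 0.01, and Txn1 and Gsr did not pass P under 0.05.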
